A study of Mus musculus with 16 samples.

Results

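T cells were compared with mature myeloid cells by sequencing their small non-coding RNA. Flow cytometry sorted both populations from wild-type mouse bone marrow, and the labels give no treatment, age, sex or strain. The comparison rests on 4 of the 16 libraries of the series, 2 labelled T and 2 labelled Myeloid (spelled Myloid), which were chosen by these labels alone. The other 12 libraries, 2 each of B and Erythroid cells and of the common lymphoid (CLP), common myeloid (CMP), granulocyte-monocyte (GMP) and megakaryocyte-erythroid (MEP) progenitors, served to estimate the spread between libraries and as a frame of reference. The labels list the antibodies used for all sorts, among them CD3, CD4, CD8, CD11b and Gr1, but not the gate of each population, so the mature myeloid cells may hold granulocytes and monocytes in unknown shares. Whether replicate libraries stem from separate mice is not in the labels either, and all p-values therefore measure a spread that may be technical. A difference in a bulk library cannot tell fewer cells of a type from less RNA per cell.

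Small nucleolar RNAs (snoRNAs) are mostly cut from introns of host genes. Those with boxes C and D guide 2′-O-methylation, and those with boxes H and ACA guide pseudouridylation, of ribosomal and spliceosomal RNA. Spliceosomal snRNAs (U1, U2, U4, U5 and U6) form the core of the spliceosome, and miRNAs guide Argonaute proteins to messenger RNAs through their seed, bases 2 to 8. In blood, miR-150 and miR-342 are known as lymphocyte miRNAs and miR-223 as a miRNA of granulocytes and monocytes.

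The sequences below belong to snoRNAs with large differences at 10 CPM or more, and to neighbours in the same host gene. The neighbours went the other way or, for Snord69, fell less. They were taken from the GENCODE M21 transcripts (GRCm38), and capitals mark box C near the 5′ end (ATGATGA or GTGATGA with at most 1 mismatch, or TGATGA at the first base in Snord68) and the last CTGA, box D. Both boxes lay within 25 bases of the ends in 75 of the 81 tested C/D snoRNAs named Snord (92.6%), and in 5 of 445 tested features that are not snoRNAs (1.12%).
Snord57 (chr2:130278016-130278087, plus strand): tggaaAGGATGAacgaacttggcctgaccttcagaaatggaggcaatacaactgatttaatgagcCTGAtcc
Gm23187 (chr2:130277195-130277280, plus strand): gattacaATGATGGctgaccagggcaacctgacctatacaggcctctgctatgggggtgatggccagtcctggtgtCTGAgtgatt
Snord2 (chr16:23108953-23109021, plus strand): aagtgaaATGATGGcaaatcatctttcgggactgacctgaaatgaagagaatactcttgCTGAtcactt
Snord68 (chr8:123103038-123103123, plus strand): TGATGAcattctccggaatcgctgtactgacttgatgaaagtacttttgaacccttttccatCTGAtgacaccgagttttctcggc
Snord49a (chr11:62603450-62603521, plus strand): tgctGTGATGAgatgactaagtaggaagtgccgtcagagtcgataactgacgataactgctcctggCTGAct
Snord90 (chr2:37400047-37400157, minus strand): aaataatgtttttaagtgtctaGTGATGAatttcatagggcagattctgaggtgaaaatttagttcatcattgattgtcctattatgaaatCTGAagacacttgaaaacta
Snord17 (chr2:144265979-144266216, minus strand): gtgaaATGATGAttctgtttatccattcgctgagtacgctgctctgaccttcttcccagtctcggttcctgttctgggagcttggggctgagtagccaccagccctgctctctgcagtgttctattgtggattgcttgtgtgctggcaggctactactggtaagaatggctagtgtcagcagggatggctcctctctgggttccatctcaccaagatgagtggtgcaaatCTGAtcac
Gm26224 (chr1:161035394-161035473, plus strand): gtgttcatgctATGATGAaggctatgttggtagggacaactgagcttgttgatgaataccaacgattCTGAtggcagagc
Snord78 (chr1:161036984-161037049, plus strand): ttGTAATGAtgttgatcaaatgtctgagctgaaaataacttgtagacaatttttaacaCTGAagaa
Gm24916 (chr14:31015148-31015226, minus strand): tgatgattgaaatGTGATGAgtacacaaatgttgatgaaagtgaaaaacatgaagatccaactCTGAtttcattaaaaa
Snord69 (chr14:31014287-31014366, minus strand): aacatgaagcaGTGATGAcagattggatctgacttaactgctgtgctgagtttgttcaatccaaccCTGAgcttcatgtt
Snord57 and Gm23187 lie in Nop56, Gm26224 and Snord78 in Gas5, and Gm24916 and Snord69 in Gnl3. The others lie in Eif4a2 (Snord2), Rpl13 (Snord68), 2410006H16Rik (Snord49a), Rc3h2 (Snord90) and Snx5 (Snord17).

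The mature miRNAs that the comparison turns on follow, from RefSeq on GRCm38.p6, with the seed in capitals. Of the 262 tested miRNA intervals, 174 were matched to a RefSeq mature sequence by symbol. Higher in T cells were the intervals of the first 6, and lower those of the next 8.
mmu-miR-342-3p: uCUCACACagaaaucgcacccgu
mmu-miR-155-5p: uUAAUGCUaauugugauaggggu
mmu-miR-182-5p: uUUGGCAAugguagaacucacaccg
mmu-miR-183-5p: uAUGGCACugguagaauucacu
mmu-miR-592-5p: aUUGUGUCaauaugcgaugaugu
mmu-miR-211-5p: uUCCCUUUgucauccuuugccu
mmu-miR-223-3p: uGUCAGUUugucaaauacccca
mmu-miR-146b-5p: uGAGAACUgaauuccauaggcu
mmu-miR-20a-5p: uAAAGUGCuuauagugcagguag
mmu-miR-19a-3p: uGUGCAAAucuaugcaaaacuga
mmu-miR-103-3p: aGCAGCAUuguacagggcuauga
mmu-miR-10a-5p: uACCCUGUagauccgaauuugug
mmu-miR-542-3p: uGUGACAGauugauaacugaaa
mmu-miR-351-5p: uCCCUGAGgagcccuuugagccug
Mir146 and Mir17 did not pass the test but share the seeds GAGAACU of Mir146b and AAAGUGC of Mir20a, as does Mir93.
mmu-miR-146a-5p: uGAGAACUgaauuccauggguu
mmu-miR-17-5p: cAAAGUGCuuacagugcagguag
mmu-miR-93-5p: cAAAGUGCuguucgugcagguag

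Total counts were 12723900 and 18191612 in the T libraries and 15590104 and 35775890 in the Myeloid libraries. Each of these libraries was most like the other library of its own population (Spearman rho 0.971 for T and 0.983 for Myeloid). C/D snoRNAs held 92.0% and 92.2% of the counts in T and 88.2% and 87.9% in Myeloid, and miRNAs 1.65% and 1.80% against 3.16% and 3.28%. Since 4 features made up 50% of the counts in each T library and 6 did so in each Myeloid library, levels are given as CPM, counts per 1e+06 counts of a library size scaled by TMM (the trimmed mean of M values), and the scaling factors were 0.812 and 0.765 for T and 1.15 and 1.12 for Myeloid. With size factors by median ratio (relative log expression, RLE) the median difference moved by 0.227 and with plain library totals by -0.528 (log2). The log2 differences of single features therefore depend on the scaling, and they are given without centring on the median. Neighbours within a host gene are compared directly.

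Of 749 features tested, 70 were higher in T cells than in Myeloid cells (9.35%) and 158 lower (21.1%), at an adjusted p under 0.05 in the quasi-likelihood test of edgeR, adjusted by Benjamini-Hochberg, which gave all adjusted p values below. The T and Myeloid libraries did not overlap in 155 features with T above Myeloid (20.7%) and in 379 with T below (50.6%). The median log2 difference, T minus Myeloid, was -0.42. Among C/D snoRNAs 50 of 165 were higher and 53 lower, with a median of 0.03, and the balance turned with the scaling (70 and 18 with RLE, 19 and 106 with library totals). Of the H/ACA snoRNAs 6 of 98 were higher and 14 lower (7 and 8 with RLE, 1 and 40 with library totals, 1 and 1 of 33 with similar copies and overlaps left out), and of the miRNAs 10 of 262 were higher and 21 lower. Of the snRNA intervals 0 of 118 were higher and 52 lower. The 45S pre-rRNA stood at 60822 and 61784 CPM in T and 59714 and 63482 CPM in Myeloid (log2 difference -0.01, adjusted p = 0.964).

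**Figure D1:**
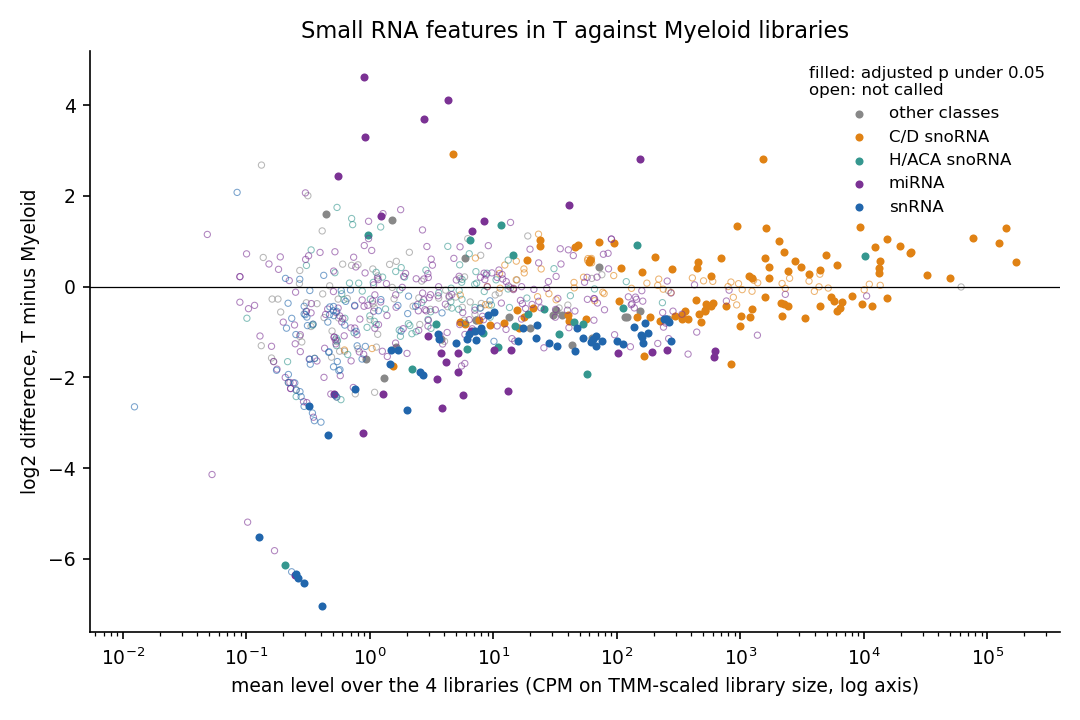
Each point is 1 of the 749 tested features, with the mean level over the 2 T and 2 Myeloid libraries on a log axis and the fitted log2 difference, T minus Myeloid. The called C/D snoRNAs lie on both sides of 0, while all 52 called snRNA intervals lie below it. Points under -5 are features at 0 counts in both T libraries, whose fitted value is no bound.

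The spread of a feature was estimated over all 8 populations. The 2 libraries of GMP, of MEP and of Erythroid differed in their miRNA content (median log2 ratio between the pair -1.11, 1.27 and -1.31, against -0.21 in T and -0.09 in Myeloid). Without these 3 populations 120 of 719 features were higher (16.7%) and 227 lower (31.6%). Among the miRNAs 29 were then higher and 70 lower of 248. Leaving out 1 of the 4 libraries at a time left 42 to 66 higher and 88 to 122 lower, the fewest lower without T replicate 2.

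Of 7 tested intervals of the lymphocyte miRNA list 3 were higher in T cells and 0 lower, with a median log2 difference of 0.74, and of 8 tested mature myeloid miRNAs 3 were lower and 0 higher. Over all features 9.35% were called higher and 21.1% lower. For the mature myeloid list RLE gave 1 higher and 2 lower, library totals 0 and 5, and the fit without GMP, MEP and Erythroid 1 and 7, while for the lymphocyte list 0 were lower in each of these and 3, 2 and 5 were higher. Mir150 (chr7:45121757-45121821), which restrains the transcription factor Myb in lymphocytes, had 259 and 285 CPM in the T libraries and 36.5 and 40.5 CPM in the Myeloid libraries. The T libraries lay above every other library of the series, the closest population being B with a mean of 81.8 CPM, and the T to Myeloid difference was 7.07-fold (log2 difference 2.82, SE 0.48, adjusted p = 9.27e-04). Mir342, in an intron of Evl, had 64.9 and 62.5 CPM in T and 16.8 and 19.6 CPM in Myeloid (log2 difference 1.81, SE 0.60, adjusted p = 0.0399). This call did not hold when any single T or Myeloid library was left out (adjusted p 0.0680 to 0.140) or with library totals (adjusted p = 0.113). Mir155, made from the B cell integration cluster transcript and induced on lymphocyte activation, had 12.2 and 12.5 CPM in T and 4.58 and 4.43 CPM in Myeloid (log2 difference 1.46, SE 0.33, adjusted p = 0.00515). Mir181a-1 and Mir181a-2, which tune T cell receptor signalling, stood at 93.5 and 119 CPM and 93 and 101 CPM in T against 63.2 and 64.4 CPM and 56.9 and 61.2 CPM in Myeloid. Their groups did not overlap, but their log2 differences of 0.74 and 0.71 did not pass (adjusted p = 0.293 and 0.341), while they passed without GMP, MEP and Erythroid (adjusted p = 2.47e-05 and 4.31e-06).

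Some scarce miRNAs were also higher in T cells. Mir182 and Mir183, neighbours on chromosome 6, had 64 and 58 counts and 20 and 20 counts in T against 2 and 24 and 2 and 8 in Myeloid (log2 difference 3.70, adjusted p = 0.00178, and 3.30, adjusted p = 0.047). Mir182 is known to be induced by interleukin 2 in helper T cells. Mir592, in Grm8, had 78 and 122 counts in T against 4 and 26 in Myeloid (log2 difference 4.11, adjusted p = 0.00293). Mir211, in Trpm1, had 24 and 16 against 0 and 4 counts (log2 difference 4.62, adjusted p = 0.0314). Each of these 4 had its highest mean in T among the 8 populations, as had 45 of all 70 features called higher. The other called rises were Mir501 (1.23), Mir99b (1.56) and Mir6516 (2.45), which with Mir592 and Mir211 were named after their values were seen. These calls rest on few counts and depend on the scaling. With library totals 6 of 262 miRNAs were higher instead of 10, and 1 of the 2 tested members of the Mir183 cluster instead of 2.

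The 8 tested mature myeloid miRNAs had a median log2 difference of -1.27. Mir223 (chrX:96242817-96242926), which limits neutrophil activation, had 293 and 335 CPM in T and 895 and 946 CPM in Myeloid, the highest level of all 8 populations (log2 difference -1.55, SE 0.34, adjusted p = 0.00446). In T cells it was not near 0, and lay between the mean of 143 CPM in B cells and that of 443 CPM in Erythroid cells. Mir147 had 3.29 and 2.3 CPM in T against 7.37 and 7.86 CPM in Myeloid (log2 difference -1.45, adjusted p = 0.0323). Mir340 and Mir139 differed in the same sense without passing (177 and 221 CPM and 152 and 175 CPM in T, 548 and 566 CPM and 343 and 382 CPM in Myeloid, adjusted p = 0.055 and 0.123), and both passed without GMP, MEP and Erythroid (adjusted p = 1.24e-09 and 4.88e-08). Mir21a, found in many activated and mature blood cells, was close in both, with 9109 and 10495 CPM in T and 10999 and 11599 CPM in Myeloid (log2 difference -0.20, adjusted p = 0.786). Summed over the list, the T libraries held 10007 and 11554 CPM, mostly Mir21a, the Myeloid libraries 13257 and 14001, and the means of the other populations ran from 3416 to 6237 CPM. The part of myeloid cells in the T sort in these levels was not tested.

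The 2 members of the Mir146 family, which share the seed GAGAACU and act on signalling downstream of Toll-like receptors, stood on opposite sides of 0. Mir146b had 125 and 156 CPM in T and 358 and 380.0 CPM in Myeloid (log2 difference -1.40, SE 0.45, adjusted p = 0.0371), although this call was lost when any of the 4 libraries was left out (adjusted p 0.0672 to 0.143). Mir146, the miR-146a interval, had 112 and 131 CPM in T and 53.8 and 63.9 CPM in Myeloid. The T libraries were higher for Mir146, but its log2 difference of 1.05 did not pass (adjusted p = 0.115; 2.01e-07 without GMP, MEP and Erythroid).

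Of 15 tested members of the Mir17-92 cluster and its paralogs, known for promoting proliferation of blood progenitors, 2 were lower in T cells and 0 higher, a share lower than the 21.1% of all features that were called lower. Without GMP, MEP and Erythroid 6 were lower and 1 higher. The 2 were Mir20a, with 93.7 and 112 CPM in T and 274 and 287 CPM in Myeloid (log2 difference -1.44, SE 0.46, adjusted p = 0.0352), and Mir19a, with 6.2 and 5.03 CPM and 15.3 and 14.3 CPM (log2 difference -1.40, SE 0.27, adjusted p = 0.00201). Their neighbours in the same host transcript did not pass. Mir92-1 had 145 and 164 CPM in T and 154 and 175 CPM in Myeloid (log2 difference -0.09, adjusted p = 0.904), and Mir19b-1 had 50.7 and 62.6 CPM and 48.9 and 57.1 CPM (0.10, adjusted p = 0.894). Mir17 had 53.5 and 71 CPM and 126 and 133 CPM (-1.06, adjusted p = 0.112). Leaving out T replicate 2 ended the call of Mir19a (log2 difference -1.05, adjusted p = 0.0648), and any single library that of Mir20a (adjusted p 0.0653 to 0.145).

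Mir10a, which lies among the Hoxb genes and is listed here with stem and progenitor miRNAs, had 312 and 364 CPM in T and 884 and 923 CPM in Myeloid, and Mir103-2, in Pank2, had 51.7 and 57.2 CPM and 150.1 and 151 CPM. Both were lower in T cells (log2 difference -1.42 and -1.47, adjusted p = 0.0441 and 0.0394). Neither call held without any 1 of the 4 libraries (adjusted p 0.0826 to 0.170 and 0.0848 to 0.183). Myeloid cells had the highest mean of the 8 populations for both. The stem and progenitor list as a whole had 1 of 7 tested members lower and 0 higher, and its sum was 329.7 and 385 CPM in T and 901 and 943 in Myeloid, most of it Mir10a. Its other members were scarce. Mir126a stood at 12 and 13.1 CPM in T and 8.04 and 11.3 CPM in Myeloid, Mir125b-1 and Mir100 at under 1 CPM in all 4 libraries. Of the 3 erythroid intervals 0 passed, and 1 was lower without GMP, MEP and Erythroid, with sums of 32.2 and 39.5 CPM in T and 47.6 and 52.2 in Myeloid. The pan-blood pair Mir142 and Mir142b did not pass either (log2 difference -0.47 and -0.40), while both were lower without GMP, MEP and Erythroid (adjusted p = 0.0011 and 0.00274).

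A cluster of 7 miRNAs within 6353 bases of the X chromosome (chrX:53047997-53054349) stood higher in Myeloid cells. It was taken as a group after its values were seen, so its count is a description. Of the 7 intervals 5 were lower in T cells and 0 higher, with a median log2 difference of -2.31. Mir542 had 3.68 and 5.17 CPM in T and 19.9 and 24.2 CPM in Myeloid (log2 difference -2.31, SE 0.49, adjusted p = 0.00338), and Mir351 had 1.94 and 1.72 CPM and 10.9 and 8.2 CPM (log2 difference -2.38, SE 0.44, adjusted p = 0.00147). The counts in T against Myeloid were 20 and 34 against 136 and 348 for Mir503, 2 and 2 against 26 and 70 for Mir450-1 and 4 and 6 against 38 and 88 for Mir450-2 (log2 difference -1.88, -3.23 and -2.37). Mir322 and Mir450b differed in the same sense without passing (22 and 48 against 98 and 236 and 26 and 42 against 162 and 360 counts, adjusted p = 0.395 and 0.056). Summed over the cluster the T libraries held 12.8 and 16.4 CPM and the Myeloid libraries 56.5 and 59.8, above the highest other population mean of 25.4 CPM. Mir322 has the seed AGCAGCA of the miR-15 and miR-16 family, which restrains the cell cycle. The tested members of that family elsewhere in the genome, Mir15a, Mir15b, Mir16-1 and Mir16-2, had 0 of 4 called, with log2 differences from -1.07 to -0.22, and 2 of 4 lower without GMP, MEP and Erythroid.

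**Figure D2:**
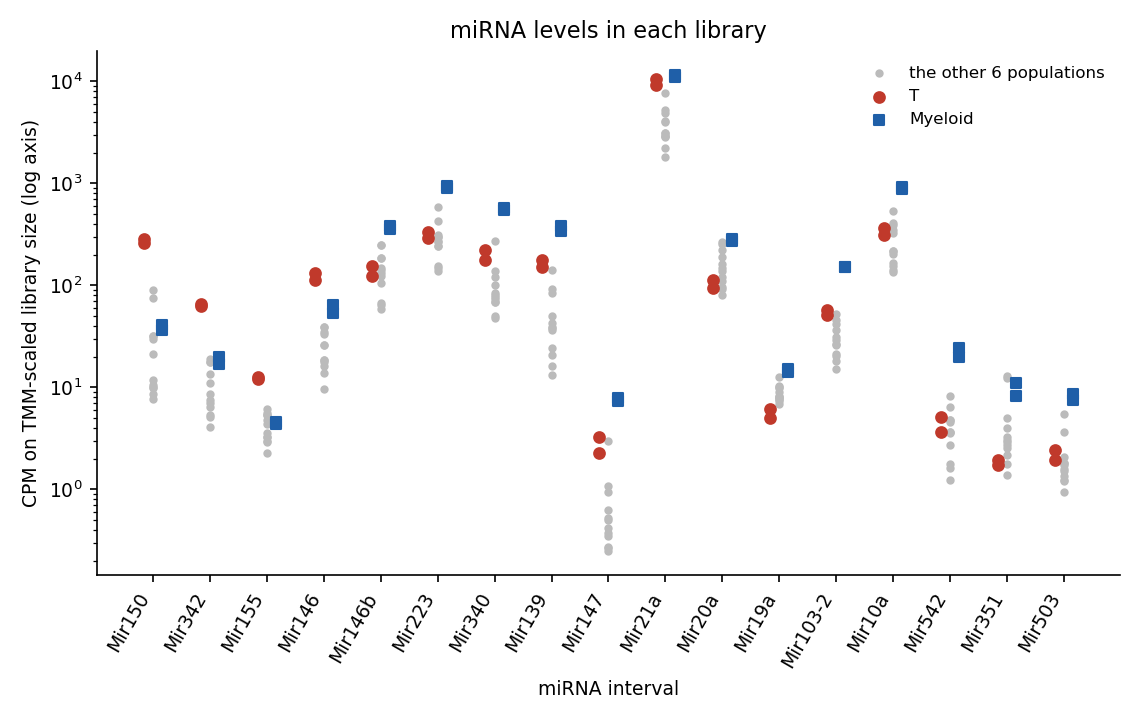
Levels of 17 miRNA intervals in every library, in CPM on TMM-scaled library size on a log axis, with T as red circles, Myeloid as blue squares and the 12 libraries of the other populations in grey. For Mir150 and Mir342 both T libraries lie above all other libraries, and for Mir223, Mir340, Mir139 and Mir103-2 both Myeloid libraries do.

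The intervals counted are hairpin genes, so the 2 arms and the precursor were counted together, and the gel step selected products of snoRNA length. Families with copies in several places can share reads. Gm27773, an unnamed miRNA interval with 3 similar copies, had 5.91 and 9.34 CPM in T and 23 and 17.6 CPM in Myeloid (log2 difference -1.40, adjusted p = 4.18e-04). Of the Mir23, Mir24 and Mir27 clusters 0 of 6 members passed (1 higher with RLE, 1 lower with library totals). Mir135a-1 and Mir135a-2, identical in their mature arm, were both lower in T cells (log2 difference -2.68 and -2.03). Of the let-7 family 0 of 11 tested members passed (0 with RLE, 1 lower with library totals, 3 lower without GMP, MEP and Erythroid), with sums of 1931 and 2294 CPM in T and 2285 and 2428 in Myeloid. The Mir30 family summed to 1370 and 1586 CPM in T and 2619 and 2838 in Myeloid with 0 of 6 called, and the Mir29 family to 56.2 and 66.1 against 39 and 39.6 with 0 of 4 called. Without GMP, MEP and Erythroid, 3 of the Mir30 family were higher and 3 lower, and 2 of the Mir29 family were higher.

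The snoRNAs that rose in T cells included some of the most abundant RNAs of the libraries. Snord2, in Eif4a2, had 192536 and 211117 CPM in T and 80892 and 84898 CPM in Myeloid, a 2.43-fold difference (log2 difference 1.28, SE 0.068, adjusted p = 1.55e-07), and was the most abundant feature of T replicate 2. Snord49a had 162330 and 169405 CPM in T and 84203 and 85763 CPM in Myeloid (log2 difference 0.96, SE 0.060, adjusted p = 4.52e-07). Snord68, in Rpl13, had 100529 and 109372 CPM and 49112 and 50330 CPM (log2 difference 1.08, SE 0.045, adjusted p = 2.81e-08). These 3 together with Gm26224 in Gas5 are the 4 features that held 50% of the counts in a T library. The T libraries of Snord2 and Snord68 lay above those of every other population.

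Snord57, in Nop56, which guides methylation of 18S rRNA, had 12757 and 13728 CPM in T and 5206 and 5356 CPM in Myeloid (log2 difference 1.33, SE 0.043, adjusted p = 4.04e-09). Snord90, in Rc3h2, had 2235 and 2372 CPM and 958 and 915 CPM (log2 difference 1.30, SE 0.065, adjusted p = 1.42e-07). Snord17, an unusually long C/D snoRNA in Snx5, had 2889 and 2450 CPM in T and 409 and 351 CPM in Myeloid, 7.02-fold apart (log2 difference 2.81, SE 0.50, adjusted p = 0.00115). It also varied within other populations, with 350.3 and 1302 CPM in MEP and 612 and 1185 CPM in GMP. Gm24463 (1349 and 1328 CPM against 540.4 and 514 CPM), Gm23246 in Snhg1 (20436 and 20811 CPM against 10078 and 9973 CPM), Gm22858 in Wdr43 (2720 and 2826 CPM against 1354 and 1398 CPM) and Gm22192 in Prrc2b (32 and 31.9 CPM against 15.1 and 16 CPM) were higher by 1.34, 1.04, 1.01 and 1.04 on the log2 scale. Gm24463 has 4 similar copies in the annotation, with which it may share reads. The H/ACA snoRNA Gm22676, in Aven, had 17.6 and 15.7 CPM in T and 6.14 and 6.86 CPM in Myeloid (log2 difference 1.35, SE 0.19, adjusted p = 1.92e-04). T had the highest mean of the 8 populations in all 12 largest rises of at least 10 CPM without library overlap. B had the next highest in 10 of them. Among all 70 features called higher T ranked highest in 45, and among all 749 tested in 107. The 12 were chosen for being high in T, so their ranks are not read as a trait of T cells.

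Snord64, of the imprinted Snrpn to Ube3a region, had 8.13 and 8.62 CPM in T and 1.12 and 1.09 CPM in Myeloid (log2 difference 2.92, SE 0.43, adjusted p = 3.15e-04). It was the only one of 4 listed snoRNAs of that region with enough counts to test. Of the snoRNAs and miRNAs of the imprinted Dlk1-Gtl2 region, which the series title concerns, 5 of 8 and 8 of 10 had a count in these 4 libraries and 0 were abundant enough to test. Their sums were 0.775 and 0.718 CPM in T and 0.335 and 0.348 in Myeloid for the snoRNAs, or 8 and 10 against 6 and 14 counts. For the miRNAs of the region they were 0.194 and 0.287 CPM in T and 0.223 and 0.547 in Myeloid, or 2 and 4 against 4 and 22 counts.

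Among the largest falls was that of Gm24916, a snoRNA in Gnl3, which encodes the nucleolar protein nucleostemin. It had 371 and 421 CPM in T and 1275 and 1319 CPM in Myeloid, 3.28-fold apart (log2 difference -1.71, SE 0.088, adjusted p = 1.42e-07), and T was the lowest of the 8 populations. Snord78, in Gas5, had 73.8 and 95.1 CPM in T and 238 and 253 CPM in Myeloid (log2 difference -1.54, SE 0.11, adjusted p = 1.23e-06). The H/ACA snoRNA Snora43 had 25.6 and 22.7 CPM in T and 91.6 and 91.2 CPM in Myeloid (log2 difference -1.92, SE 0.14, adjusted p = 1.79e-06), while the other populations had means from 42.6 CPM in B to 589.9 CPM in MEP. The interval overlaps another annotated one, and without strand their reads cannot be told apart. Smaller falls among features of at least 1000 CPM were those of Gm23008 in Ppan (694 and 720.4 CPM against 1283 and 1311 CPM, log2 difference -0.88, adjusted p = 2.22e-06) and Gm22455 in Rpl4 (899 and 949 CPM against 1472 and 1454 CPM, -0.66, adjusted p = 6.59e-06). Snord52 and Gm25744 lie next to each other in 1110038B12Rik and fell alike, by 0.64 and 0.64 on the log2 scale. The falls of Gm25744, Gm22879, Gm23212 and Snord99 were not called with RLE (log2 difference -0.42, -0.30, -0.25 and -0.26, adjusted p = 0.0592, 0.0711, 0.175 and 0.142).

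Within single host genes snoRNAs went in opposite directions, although they start from introns of 1 primary transcript. Of 53 hosts with at least 2 tested snoRNAs, 16 held a member called higher in T cells and a member called lower, 7 with RLE and 11 with library totals. Under all 3 scalings 4 did so, namely Nop56, Snhg1, Wdr43 and Hspa9. In Hspa9 the lower member, Gm22200, was scarce, with means of 0.70 CPM in T and 2.40 CPM in Myeloid. The ratio between 2 snoRNAs of a host within a library does not depend on scaling. Each ratio here and in the next paragraph sets the member with the largest log2 difference against that with the smallest. Both were picked from these same values among members of at least 10 CPM. A larger ratio in T is thus fixed by the choice, and the ratios only describe its size. In Nop56, a core protein of C/D snoRNPs, Snord57 was 430.5 and 436 times as abundant as Gm23187 in T and 108 and 96.7 times in Myeloid. Gm23187 had 29.6 and 31.5 CPM in T and 48.3 and 55.4 CPM in Myeloid (log2 difference -0.76, adjusted p = 1.36e-04), while Snord110 of the same host rose with Snord57 (2747 and 2968 CPM against 1651 and 1726 CPM, 0.76, adjusted p = 3.01e-06). In Wdr43, Gm22858 was 10.9 and 10.6 times as abundant as Snord53 in T and 3.18 and 3.37 times in Myeloid (Snord53 249.9 and 267 CPM against 426 and 415 CPM, log2 difference -0.70, adjusted p = 1.94e-05). In Snhg1, a host with no protein product, Gm23246 was 77.5 and 67.6 times as abundant as Gm24453 in T and 21.5 and 21.4 times in Myeloid. Snhg1 held 1 higher and 4 lower of 8 members (2 and 1 with RLE, 1 and 7 with library totals). Over all tested features 9.35% were higher and 21.1% lower.

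Gas5, a non-coding host whose transcript is stabilised when growth stops, held 2 higher and 4 lower of 10 members (2 and 2 with RLE, 0 and 9 with library totals). Gm26224 had 196453 and 205643 CPM in T and 138815 and 139085 CPM in Myeloid (log2 difference 0.53, SE 0.054, adjusted p = 1.81e-05), but its log2 difference was 0.0046 and not called with library totals (adjusted p = 0.916), and the ratio of Gm26224 to Snord78 was 2662 and 2162 in T and 583 and 549.7 in Myeloid. The 4 that fell were Snord78, Mir5117 (annotated as a C/D snoRNA here, -0.69), Gm23212 (-0.48) and 1 Snord80 copy (-0.35), and the 2 called higher were Gm26224 and Gm25789 (0.25, but -0.28 with library totals). In Eif4a2, a translation initiation helicase, Snord2 rose while the H/ACA snoRNA Gm26447 fell (30.4 and 35.8 CPM in T, 60.1 and 54 CPM in Myeloid, log2 difference -0.78, adjusted p = 0.00165). With RLE 1 of the 5 Eif4a2 members was higher and 0 lower, and with library totals 1 was higher and 2 lower. In Gnl3 the fall of Gm24916 was larger than that of Snord69 (498 and 550.3 CPM against 644 and 695 CPM, log2 difference -0.35, adjusted p = 0.00309), and Snord19 did not pass (-0.13). The Snord19 to Gm24916 ratio was 0.704 and 0.631 in T and 0.227 and 0.216 in Myeloid. Of 52 snoRNAs in ribosomal protein genes other than Rpl13a 12 were higher and 14 lower (15 and 3 with RLE, 4 and 30 with library totals). Over all tested features 9.35% were higher and 21.1% lower. In Rpl13a 2 of 4 were higher and 0 lower, but with library totals 0 were higher and 3 lower. In Nop58, another core protein of C/D snoRNPs, 1 of 4 was higher and 2 lower, in the non-coding host Zfas1 1 of 3 was higher and 2 lower, and in Ncl, which encodes nucleolin, 0 of 3 were higher and 1 lower. With RLE 0 were lower in each of these 4 hosts, and with library totals 3 were lower in each. The counts of single hosts are small, and nothing is read from them against the shares over all features.

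**Figure D3:**
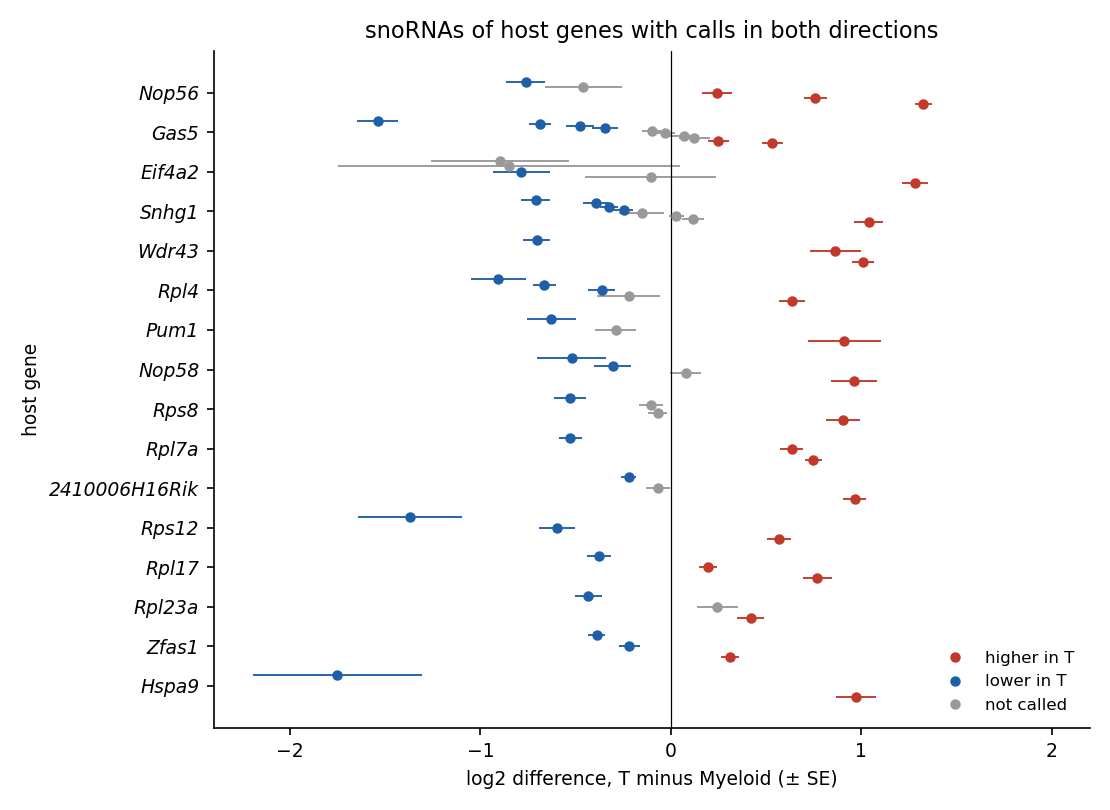
The tested snoRNAs of the 16 host genes with calls in both directions, with the log2 difference, T minus Myeloid, and bars of 1 SE. Red points were called higher in T, blue points lower, and grey points neither. In Nop56 the members run from -0.76 to 1.33, and in Gas5 from -1.54 to 0.53.

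The snoRNAs listed for processing of the ribosomal RNA precursor showed no common direction. Of 19 tested intervals 3 were higher and 1 lower, with a median log2 difference of 0.09 (9 higher and 0 lower with RLE, 0 and 10 with library totals). Over all tested features 9.35% were higher and 21.1% lower, with a median of -0.42. The 3 were Snord13 (118 and 129.9 CPM in T, 91.8 and 95.4 CPM in Myeloid, 0.40, adjusted p = 0.0285; -0.13 with library totals) and 2 of the Rnu3b (U3) copies. All 8 Rnu3b intervals had log2 differences between 0.53 and 0.62, but they are near-identical copies that may share reads and do not count as 8 measurements. The Rnu3a copies stood at -0.03 and 0.09 and Snord118 (U8) at -0.04, none of which passed. Snord14c in Hspa8 was the lower one (646 and 672 CPM against 894 and 866 CPM, -0.42, adjusted p = 0.00147). The scaRNAs, guides for snRNA modification in Cajal bodies, did not pass (Scarna9 -0.14, Scarna10 -0.02).

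Many intervals annotated as snRNA were lower in T cells, and 0 were higher. Of the 118 tested, 14 had none of the lengths taken for U1, U2, U4, U5 and U6, and 7 of these were lower. Not all of the 118 therefore need be spliceosomal. The 118 tested intervals summed to 2149 and 2203 CPM in T and 4267 and 4338 CPM in Myeloid, and the T libraries lay below every other library of the series, from 2997 and 3078 CPM in CMP to 4551 and 4294 CPM in GMP. Of the 118 intervals 52 were lower and 0 higher (42 lower with RLE, 73 with library totals, 0 higher in each). Also 0 were higher at an unadjusted p under 0.05 and 0 were higher with DESeq2. The median log2 difference was -1.14, or -1.06 with 6 intervals at 0 in both T libraries set at their bound from 3 counts a library and 1 left out. The snRNA genes have many similar copies, so the intervals are not independent. Among the 11 with no similar copy or overlap 4 were lower and 0 higher, with a median of -0.78.

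By length of the RNA, 16 of 23 U1-length, 13 of 15 U2-length, 1 of 3 U4-length, 6 of 7 U5-length and 9 of 56 U6-length intervals were lower, against 21.1% of all features. The U6-length share is below that of all features, so nothing is read from it. These intervals were scarce, and all listed ones summed to 18.4 and 21.4 CPM in T and 45.9 and 48.5 CPM in Myeloid. Their median log2 difference was -1.59, and 44 of the 56 were below 0 without being called. Rnu1b2, a U1 gene, had 38.4 and 40.2 CPM in T and 93.1 and 101 CPM in Myeloid (-1.30, adjusted p = 6.59e-06). Rnu2-10 had 178 and 187 CPM and 303 and 293 CPM (-0.71, adjusted p = 5.67e-05), and Rnu5g 96.6 and 97.7 CPM and 185 and 174 CPM (-0.89, adjusted p = 1.60e-05). Minor spliceosome RNAs moved the same way, with 120.1 and 126 CPM of Rnu12 (U12) in T and 217 and 215 CPM in Myeloid (-0.81, adjusted p = 3.18e-05) and Rnu11 (U11) at -1.15. Rnu7, which serves histone messenger RNA processing and not splicing, had 163 and 172 CPM in T and 374 and 395 CPM in Myeloid (-1.20, adjusted p = 1.13e-06). Gm25360, a U2-length interval with 12 similar copies, had 25.1 and 24.9 CPM and 65.1 and 68.1 CPM (-1.42, adjusted p = 2.22e-06). T had the lowest mean of the 8 populations in 42 of the 52, and Myeloid the highest in 9. Among all 158 features called lower these counts were 118 and 34, so they are not read as a trait of snRNAs.

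**Figure D4:**
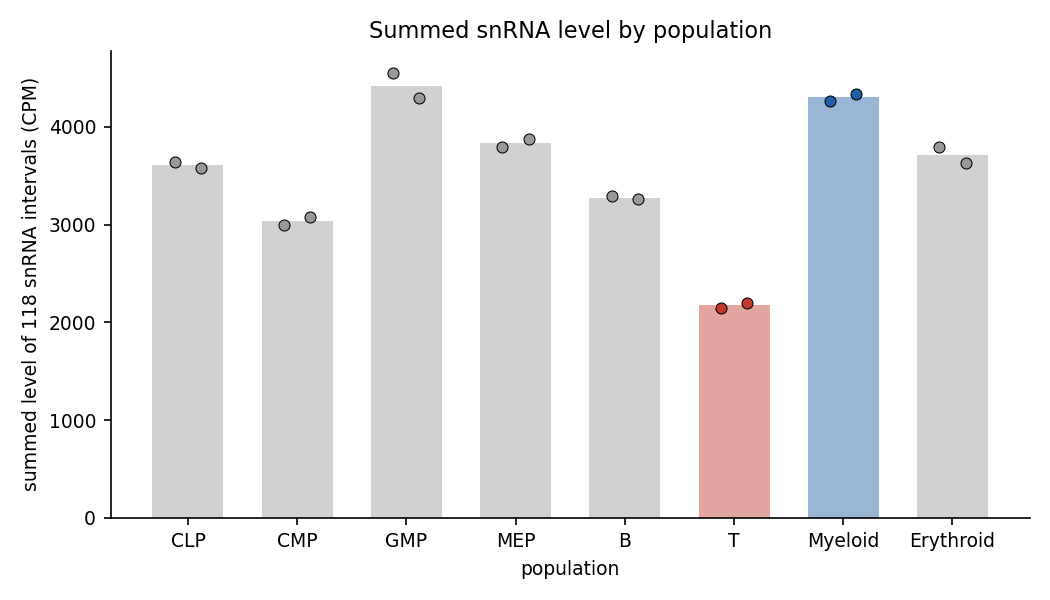
Summed level of the 118 tested snRNA intervals in each library (points) and the mean of the 2 libraries of a population (bars), in CPM on TMM-scaled library size. The T libraries, at 2149 and 2203 CPM, are the lowest of the 16, and the Myeloid libraries stand at 4267 and 4338 CPM.

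Some small RNAs that RNA polymerase III makes in all cells were also lower in T cells. Rn7sk (7SK), which holds the elongation factor P-TEFb inactive, had 40.7 and 38.1 CPM in T and 87.7 and 84.8 CPM in Myeloid (log2 difference -1.13, SE 0.099, adjusted p = 6.25e-06), and the Y RNA Rny1 had 21.1 and 29.2 CPM and 55.6 and 66.5 CPM (log2 difference -1.28, SE 0.17, adjusted p = 1.43e-04). Of 6 tested housekeeping small RNAs 4 were lower and 0 higher (2 lower with RLE and 6 with library totals), namely Rn7sk, Rny1, Vaultrc5 (-0.75) and Rn7s2 (-0.63). Over all tested features 21.1% were lower. The median log2 difference was -0.69 for the list and -0.42 for all features. Rny1 and Rn7s2 have similar copies in the annotation. With similar copies and overlaps left out only 2 members could be tested, and 1 was lower. All 4 tested 5S rRNA intervals were lower (-0.71 to -0.66), but each has 116 to 121 similar copies in the annotation. Among 21 mitochondrial tRNAs mt-Th (84.4 and 81.8 CPM against 63.6 and 59.7 CPM, 0.43, adjusted p = 0.0054) and mt-Tl1 (0.63) were higher and mt-Ti, mt-Ta and mt-Ts2 lower (-1.33, -0.74 and -0.51). These 2 higher and 3 lower stand against 9.35% and 21.1% of all tested features, so nothing is read from the counts. The 16S mitochondrial rRNA mt-Rnr2 was lower (120.0 and 133 CPM against 188 and 178 CPM, -0.54, adjusted p = 0.00293), and the 12S mt-Rnr1 did not pass (0.18, adjusted p = 0.338). With RLE 0 of the 2 mitochondrial rRNAs were called, as without T replicate 1, T replicate 2 or Myeloid replicate 1, and the mitochondrial tRNAs had 2 higher and 0 lower with RLE and 0 and 10 with library totals.

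Whether these differences were already there between lymphoid and myeloid progenitors was asked by testing T minus Myeloid against CLP minus CMP, which share no library. Between the contrasts 85 of 749 features differed with a higher value in the mature pair (11.3%) and 157 with a lower value (21.0%). Of the 33 features named for their size of difference, 25 differed between the contrasts, against 32.3% of all tested features. The 33 were chosen for a difference that is itself part of this contrast, so nothing is read from their excess over that share. CLP minus CMP passed the test for 23.4% of all 749 features (11.9% higher, 11.5% lower), and for the 33 it passed in the same direction for 5 and in the opposite direction for 9. For Mir150 the progenitors had 10.5 and 9.9 CPM in CLP and 31.9 and 32.2 in CMP (-1.65, adjusted p = 0.025), so that the progenitor difference was of opposite sign to that in mature cells, and the difference between the contrasts was 4.47 (SE 0.67, adjusted p = 3.42e-04). Snora43 had 191 and 188 CPM in CLP and 64.7 and 70.8 in CMP (1.48, adjusted p = 1.30e-05), against the fall in T cells, and the difference between the contrasts was -3.41 (SE 0.20, adjusted p = 4.70e-07). Gm24916 had 1722 and 1765 CPM in CLP and 1390 and 1436 in CMP (0.30, adjusted p = 0.0231), and the difference between the contrasts was -2.02 (SE 0.12, adjusted p = 5.14e-07). Snord2 was higher in CLP as it was in T (75815 and 78352 CPM in CLP and 40530 and 42481 in CMP, 0.89, adjusted p = 2.55e-06), and the difference between the contrasts was 0.39 (SE 0.094, adjusted p = 0.00779), or -0.070 with library totals (adjusted p = 0.278). For Snord57 the progenitor difference was small and of opposite sign (-0.25, adjusted p = 9.77e-04).

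**Figure D5:**
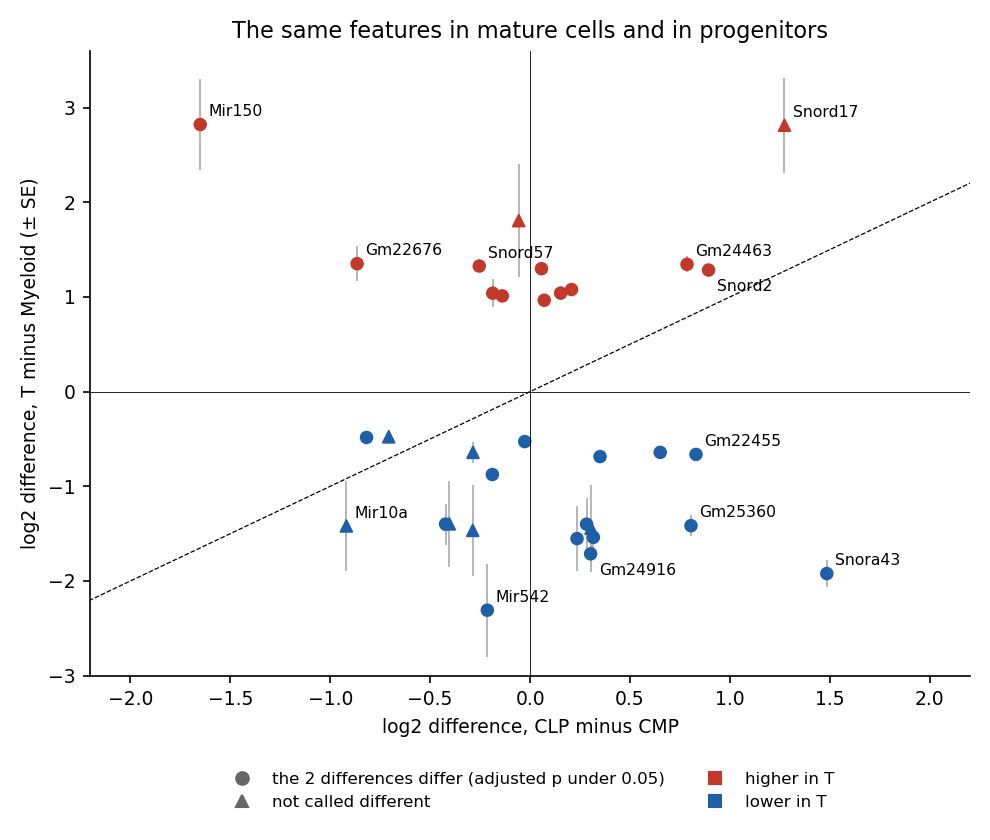
The 33 features with the largest called differences among those of at least 10 CPM, or of at least 1000 CPM, without overlap of the T and Myeloid libraries. The horizontal axis gives the log2 difference CLP minus CMP, and the vertical axis T minus Myeloid with bars of 1 SE. Scarcer features with larger differences are left out. Circles mark the 25 whose contrasts differed, triangles the other 8, and on the dashed line both differences are equal. Snora43 and Mir150 lie farthest from it, with opposite signs in the 2 contrasts.

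Between CLP and CMP the snRNA difference was mostly of opposite sign. The 118 tested intervals summed to 3637 and 3583 CPM in CLP and 2997 and 3078 CPM in CMP. In GMP the sums were 4551 and 4294 CPM, so CLP lay above CMP but below GMP. Among the 52 intervals lower in T cells the median log2 difference was -1.19 for T minus Myeloid and 0.53 for CLP minus CMP. CLP minus CMP was above 0 in 39 of the 52, called higher in 19 of them and lower in 3. Over all 118 tested snRNA intervals, not chosen by their difference, the median was -1.14 for T minus Myeloid and 0.56 for CLP minus CMP, and the contrasts differed in 59.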

How the data were processed

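Small RNA was extracted with Trizol, made into NEBNext small RNA libraries, size-selected on a gel for snoRNA-length products and sequenced on a NovaSeq, per the labels' protocols. Reads were trimmed with Trimmomatic 0.38 and aligned with Bowtie2 2.3.4.1 to GRCm38, per the submitters' processing notes. The counter, annotation, strand setting and treatment of reads with several hits are not given in the sources used here. The authors deposited raw read counts per annotated interval, 1 table a library, listing only intervals with a count, and a missing interval was taken as 0. Between 89.0% and 93.2% of the values in a library are even numbers, and whether mates were counted separately is not given in the sources used here.

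Intervals were named by exact coordinates in GENCODE M21 (1884 of 1885), and the remaining 1 is the 45S pre-rRNA. Unnamed snoRNAs were classed by their sequence boxes and length (267 intervals), and hosts are genes whose bounds hold the snoRNA. Similar copies are annotated RNAs with at least 90% identity over 80% of the length (blastn 2.17.0). Features passing the low-count filter of edgeR 4.0.16 (filterByExpr, minimum count 10) were tested over all 16 libraries (R 4.3.3, 8 residual degrees of freedom) with TMM scaling and the quasi-likelihood test, which was tested on simulated data. The 1136 features under the filter were not tested. A bound against libraries at 0 uses 3 counts a library and covers counting error only.

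Named features are the 12 largest called rises and falls with at least 10 CPM and no overlap between the T and Myeloid libraries, the 8 largest each way with at least 1000 CPM, members of the marker, rRNA-processing, scaRNA and housekeeping lists, snoRNAs of the hosts involved, and for other lists the most abundant and lowest-p members. Mir592, Mir211, Mir501, Mir99b, Mir6516, the Mir135a copies, the X chromosome cluster, the Rnu genes, the 5S and mitochondrial intervals and the H/ACA snoRNAs of the closing section were chosen after their values were seen. All members and lists were chosen with earlier results of these data known. Alternatives were DESeq2 1.42.0, RLE and library totals, other filters, halved counts, subsets of features or libraries, a replicate block and each library left out in turn.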

Additional observations from a re-analysis of the deposited data

Results flagged for a closer look

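In 25 of the 33 features named for their size, T minus Myeloid and CLP minus CMP differed by the interaction term of edgeR's quasi-likelihood test after Benjamini-Hochberg adjustment, against 32.3% of all tested features. These features were chosen for their T minus Myeloid difference, which is part of the tested term, so nothing is read from the excess. The values are log2 differences of the mature contrast minus the progenitor contrast. Among snoRNAs that were higher in T cells the difference was 1.58 for Snord57, 0.87 for Snord68, 1.24 for Snord90, 0.39 for Snord2, 1.15 for Gm22858, 0.56 for Gm24463, 0.89 for Snord49a, 0.89 for Gm23246, 2.22 for Gm22676 and 1.23 for Gm22192. Among snoRNAs that were lower in T cells it was -2.02 for Gm24916, -1.86 for Snord78, -3.41 for Snora43 (ENSMUSG00000097052), -0.69 for Gm23008, -1.04 for Mir5117, -1.49 for Gm22455, -1.29 for Snord52 and -0.50 for Gm22879. Snord99 is the exception, lower in T cells with an interaction of 0.33. The U2-length interval Gm25360 had -2.22. Among miRNA intervals it was 4.47 for Mir150, -1.68 for Mir19a, -2.09 for Mir542, -1.79 for Mir223 and -0.98 for Gm27773.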

How the results depend on the processing

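In this paragraph counts are called features by edgeR's quasi-likelihood test unless named, higher then lower in T cells, and the cause of each change was not tested. T minus Myeloid gave 70 and 158. It gave 26 and 326 with library totals, 109 higher with DESeq2, 94 lower with RLE, 75 lower over snoRNAs and scaRNAs alone, 50 lower with similar copies and overlaps left out, 120 higher without GMP, MEP and Erythroid, and 155 higher in the 4 libraries alone. Leaving out 1 library gave 42 to 66 and 88 to 122. The contrast against CLP minus CMP gave 85 and 157. It gave 49 and 241 with library totals, 37 and 50 with copies left out, 82 lower over snoRNAs and scaRNAs alone, 95 lower at a mean of at least 10 CPM, 139 higher without the 3 populations, 102 lower against CLP minus GMP, and 52 to 74 and 99 to 145 with 1 library left out. C/D snoRNAs, 50 and 53, gave 19 and 106 with library totals, 18 lower with RLE, 22 lower with DESeq2, 32 lower with no filter, 24 lower with copies left out, 93 and 35 in the 4 libraries alone, and 33 to 54 and 25 to 46 with 1 left out. miRNAs, 10 and 21, gave 6 and 60 with library totals, 16 and 42 with no filter, 2 higher at 10 CPM, 17 higher with DESeq2, 29 and 70 without the 3 populations, 39 and 48 in the 4 libraries alone, and 4 to 5 and 9 to 13 with 1 left out. The snRNA intervals, 52 lower, gave 29 at 10 CPM, 4 with copies left out and 36 to 49 with 1 library left out. Hosts with both directions, 16, were 7 with RLE, 10 with no filter, with DESeq2 or with copies left out, and 11 to 14 with 1 library left out. With the 45S pre-rRNA out of the total, C/D snoRNAs held 96.7% in T and 94.6% in Myeloid, on average.

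Among the 33 features named for their size, all 33 calls held in the 4 libraries alone, without GMP, MEP and Erythroid, with no filter, at 10 CPM and with halved counts, and 29 held with RLE, 29 with DESeq2 and 32 with library totals. Without T replicate 2, 25 held, and 28 held without each of the other 3 libraries. Gm23212 and Snord99 lost their calls without T replicate 2 (adjusted p = 0.0645 and 0.0867). Of the 33, 26 could be tested with copies left out and 22 over snoRNAs and scaRNAs alone, and all of these held. The T and Myeloid libraries share replicate numbers, but 2 pairs do not show that a number marks a shared mouse or day (correlation of the replicate 1 deviations 0.112 over 749 features). With the replicate block 69 were higher and 155 lower, and Mir103-2, Mir10a and Vaultrc5 lost their calls (adjusted p = 0.0506, 0.0506 and 0.0587).

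Signs turned as follows (log2). With library totals they were -0.46 for Gm22489, -0.29 for Gm23650, -0.36 for Gm24148, -0.28 for Gm25789, -0.41 for Gm25855, -0.50 for Gm25894, -0.43 for Rnu3a (ENSMUSG00000106147), -0.45 for Snora16a (ENSMUSG00000065097), -0.42 for Snora61, -0.22 for Snord12, -0.13 for Snord13, -0.087 for Snord32a, -0.40 for Snord33, -0.34 for Snord34, -0.45 for Snord70 and -0.41 for Snord80 (ENSMUSG00000105780), and for the contrast against the progenitors -0.23 for Gm23212 (interaction), -0.070 for Snord2 (interaction) and -0.13 for Snord99 (interaction). Against CLP minus GMP, Gm23212 and Snord99 stood at -0.80 and -0.61. With RLE Gm23201 stood at 0.0073 and Snord65 at 0.0047, and with DESeq2 at 0.0074 and 0.0047. In the 4 libraries alone the values were 0.15 for Gm22357, 0.032 for Gm23201, 0.0021 for Gm24452, 0.21 for Snord118, 0.22 for Snord47, 0.19 for Snord49b and 0.030 for Snord65. A library's 3 counts correspond to 0.0746 to 0.291 CPM in T and Myeloid, which limits what can be said of the scarcest features.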

Other observations

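Of the H/ACA snoRNAs, guides for pseudouridylation, 20 of the 98 tested passed the test of edgeR (6 higher and 14 lower in T cells, against 9.35% and 21.1% of all tested features). With RLE 7 were higher and 8 lower, with library totals 1 and 40, and with similar copies and overlaps left out 1 and 1 of 33. Gm25117, in Nap1l1, had 12757 and 12282 CPM in T and 8031 and 7728 CPM in Myeloid (log2 difference 0.67). Gm25291, in Sec24a, had 196 and 189.9 CPM in T and 102 and 101 CPM in Myeloid (log2 difference 0.93), and Snora65, in Rpl12, had 9.68 and 7.61 against 4.47 and 3.98 CPM (log2 difference 1.03). Among those that were lower, Snora26 in Dancr had 5.81 and 6.61 CPM in T and 15.6 and 15.8 CPM in Myeloid (log2 difference -1.33). Snora33, in Rps12, had 2.91 and 3.88 against 8.15 and 9.45 CPM (log2 difference -1.37), and Snora9, in Snhg15, had 19.6 and 25.3 against 44.5 and 48.1 CPM (log2 difference -1.04). These 6 were chosen after their values were seen, and in each the T and Myeloid libraries did not overlap, as in 20.7% of all tested features with T above and 50.6% with T below.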
